A study of Mus musculus with 12 samples.

Results

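The mitochondrial ribosomal protein genes were followed across the kidneys of mice with and without Gpx3 in the tubular epithelium, after ischemia-reperfusion injury (IRI) or sham surgery. They were taken by name, as every gene whose symbol starts with Mrpl (large subunit) or Mrps (small subunit) followed by a digit. This gave 78 genes of the 13465 in the table, 49 Mrpl and 29 Mrps, measured through 148 deposited transcripts. Of these genes, 77 passed the filter on low values (1 FPKM or more in 3 or more libraries) and were tested. Mrpl53 did not pass. RNA was sequenced from renal cortex, per the series design text, in 4 groups of 3 libraries. CKO IRI mice lacked GPX3 in renal tubular epithelial cells and had both kidneys made ischemic for 30 min and reperfused for 48 h. WT IRI mice were wild type and had the same injury. CKO sham mice carried the tubular knockout and had sham treatment, and WT sham mice were wild type with sham treatment. The sources used here do not give the Cre driver, the strain, the age or the sex. No agent other than surgery was named.

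Mitochondria keep a small genome that encodes core subunits of the respiratory chain and of ATP synthase, and they translate its messages on a ribosome of their own. All proteins of this mitoribosome are encoded in the nucleus, made in the cytosol and imported. Some descend from bacterial ribosomal proteins and others were added in the mitochondrial lineage. Cells of the proximal tubule are rich in mitochondria and depend on oxidative phosphorylation for solute reabsorption.

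The promoters of a few members are printed first, because Mrpl33 and Mrpl52 carried the largest rises after IRI in wild-type kidneys, and because Mrps11 and Mrpl46 are neighbours of which Mrps11 fell there and Mrpl46 was not called. Each window holds 250 bases before and 50 after the annotated start, from RefSeq on build GRCm38.p6, and capitals mark matches to the motifs searched. Mrpl33 (chr5:31613701-31614000, plus strand) and Mrpl52 (chr14:54426659-54426958, plus strand) encode large-subunit proteins. Mrps11 (chr7:78782881-78783180, plus strand) and Mrpl46 (chr7:78783040-78783339, minus strand) encode a small-subunit and a large-subunit protein that start head to head and share sequence between their windows.
Mrpl33: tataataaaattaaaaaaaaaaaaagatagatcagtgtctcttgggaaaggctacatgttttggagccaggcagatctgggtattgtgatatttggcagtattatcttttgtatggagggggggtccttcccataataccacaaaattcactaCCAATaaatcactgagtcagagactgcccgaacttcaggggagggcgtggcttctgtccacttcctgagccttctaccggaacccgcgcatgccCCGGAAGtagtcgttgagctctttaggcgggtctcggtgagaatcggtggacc
Mrpl52: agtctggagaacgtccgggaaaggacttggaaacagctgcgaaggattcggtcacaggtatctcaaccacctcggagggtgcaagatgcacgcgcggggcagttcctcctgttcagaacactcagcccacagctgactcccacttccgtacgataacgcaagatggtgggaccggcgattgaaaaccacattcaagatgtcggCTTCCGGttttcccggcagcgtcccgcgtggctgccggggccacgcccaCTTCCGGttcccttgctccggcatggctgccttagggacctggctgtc
Mrps11: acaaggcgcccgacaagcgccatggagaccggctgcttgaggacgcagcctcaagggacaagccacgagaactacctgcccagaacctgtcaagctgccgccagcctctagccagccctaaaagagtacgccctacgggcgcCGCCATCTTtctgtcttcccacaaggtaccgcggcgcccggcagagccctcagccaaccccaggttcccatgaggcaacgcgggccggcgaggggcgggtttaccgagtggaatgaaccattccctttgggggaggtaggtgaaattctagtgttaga
Mrpl46: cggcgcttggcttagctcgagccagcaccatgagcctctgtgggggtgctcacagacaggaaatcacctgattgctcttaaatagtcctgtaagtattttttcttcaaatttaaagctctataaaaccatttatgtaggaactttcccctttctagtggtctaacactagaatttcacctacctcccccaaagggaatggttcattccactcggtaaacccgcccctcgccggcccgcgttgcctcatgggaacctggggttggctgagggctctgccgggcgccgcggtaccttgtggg

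Mrpl33 held an ETS/GABP motif (CCGGAAG) and a CCAAT box, Mrpl52 held the ETS/GABP motif at 2 places on the other strand, and Mrps11 held a YY1 motif (AAGATGGCG), also on the other strand. No match was found in the Mrpl46 window, which does not reach the YY1 match of Mrps11. Promoters were listed for 69 of the 78 members, 75 windows in all. The ETS/GABP motif was found in 34.7% of the member windows, against 16.3% of 13408 windows of genes in the table and 8.86% of all 32851 windows listed. YY1 was found in 10.7% of member windows, against 2.74% in genes of the table and 1.40% in all windows. The NRF1 motif was found in 4.00% of member windows, against 1.87% in genes of the table and 0.971% in all windows. The E-box (CACGTG) was about as frequent in member windows (9.33%) as in genes of the table (9.55%), as was the CCAAT box (30 of the 75 windows, against 37.2%). Cytosolic ribosomal protein windows held the ETS/GABP motif at 36.8% and the YY1 motif at 7.35%. Split by the calls in WT IRI against WT sham, the ETS/GABP motif was in 26.7% of 15 windows of members that rose. It was in 37.5% of 56 windows of members not called. NRF1, YY1 and the E-box were also less frequent in the former, whereas the CCAAT box was in 60% against 33.9%. The windows of Mrps6, which rose, and of Mrpl1, which fell, held no match. A link between motifs and changes was not tested. A match describes the letters of a window and is not a binding site. Both strands were searched, and none of these motifs contains another.

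The deposited values were read as FPKM (fragments scaled by transcript length and library size), so that levels are per length and can be set side by side between genes. They summed to between 391002 and 422328 FPKM per library, and the read depth behind them is unknown. Gpx3 itself lay at 3723, 3025 and 2779 FPKM in the libraries labelled CKO IRI, 2788, 3568 and 1075 FPKM in those labelled WT IRI, 2501, 3037 and 3299 FPKM in CKO sham, and 5664, 4476 and 5371 FPKM in WT sham. The CKO sham libraries were all below the WT sham libraries but stayed at 2501 FPKM or more. Which cells held the remaining transcript was not tested. After IRI the genotypes overlapped, so the knocked-out transcript does not check the genotype labels there. Kidney identity was checked by 10 proximal tubule markers, which summed to 3053 to 7293 FPKM in CKO IRI, 1952 to 5222 FPKM in WT IRI, 8941 to 10630 FPKM in CKO sham and 8561 to 8794 FPKM in WT sham. The extraction protocol in the labels speaks of joint capsule, but Comp, the only joint marker of 5 in the table, was at 1.63 FPKM or less in every library. The median SD between replicate libraries per member was 0.187 (log2) in CKO IRI, 0.225 in WT IRI, 0.143 in CKO sham and 0.0805 in WT sham. Nothing states that libraries came from separate animals, so a p-value here reflects the variation among these libraries, which may be technical. In bulk cortex, fewer cells of a type and less RNA per cell cannot be told apart.

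Mitochondrial ribosomal protein mRNAs held 0.749% to 1.02% of the summed signal of a library. They summed to 3091, 3726 and 3626 FPKM in CKO IRI, to 4040, 3505 and 3524 FPKM in WT IRI, to 3759, 3269 and 3337 FPKM in CKO sham, and to 3149, 2970 and 2926 FPKM in WT sham. All WT IRI and CKO sham libraries thus lay above all WT sham libraries, while CKO IRI 7 lay within the WT sham range. The highest WT IRI library, number 13, drew part of its sum from Mrpl52 at 352.3 FPKM and Mrpl33 at 316.1 FPKM. In WT sham kidneys the members spanned a wide range of levels, from Mrpl12 to Mrpl53. Mrpl12, the L7/L12-type stalk protein that also binds the mitochondrial RNA polymerase, was highest at 154.3 ± 4.41 FPKM (SD, n = 3). Mrpl42 followed at 134.4 ± 3.16 FPKM, Mrpl34 at 116 ± 2.05 FPKM, Mrps21 at 105.5 ± 9.69 FPKM and Mrpl30 at 99.65 ± 3.23 FPKM. Mrpl12 and Mrpl42 were each apart from the next gene by more than the sum of their SDs, whereas Mrpl34 and Mrps21 were not.

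The lowest levels in WT sham were those of Mrpl53 at 0.762 ± 0.152 FPKM and Mrps34 at 1.04 ± 0.454 FPKM, which overlapped each other within their SDs. Mrpl19 (4.54 ± 0.243 FPKM), Mrps25 (6.28 ± 0.369 FPKM) and Mrpl47 (6.81 ± 0.314 FPKM) came next. Mrps25 and Mrpl47 lay within the sum of their SDs of each other. Both of the lowest genes overlap another coding gene on the same strand in the annotation, so their reads can be shared, which was not tested. For Mrpl53 that gene is Gm42688, for which no value was given. For Mrps34 that gene is Nme3, which was at 8.94 to 16.0 FPKM across the libraries. The bacterial S18 family has 3 mitochondrial paralogs, and of these Mrps18a, which sits in the large subunit, was highest in WT sham at 68.0 ± 5.37 FPKM. Mrps18c was at 33.4 ± 3.27 FPKM and Mrps18b at 14.3 ± 2.06 FPKM there, both small-subunit proteins. The order of these paralogs was the same in CKO IRI (63.2 ± 11.3, 40.6 ± 7.21 and 17.6 ± 4.12 FPKM), in WT IRI (55.1 ± 12.8, 40.5 ± 1.10 and 14.95 ± 5.41 FPKM) and in CKO sham (70.6 ± 8.49, 40.3 ± 6.25 and 15.02 ± 1.62 FPKM).

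**Figure D1:**
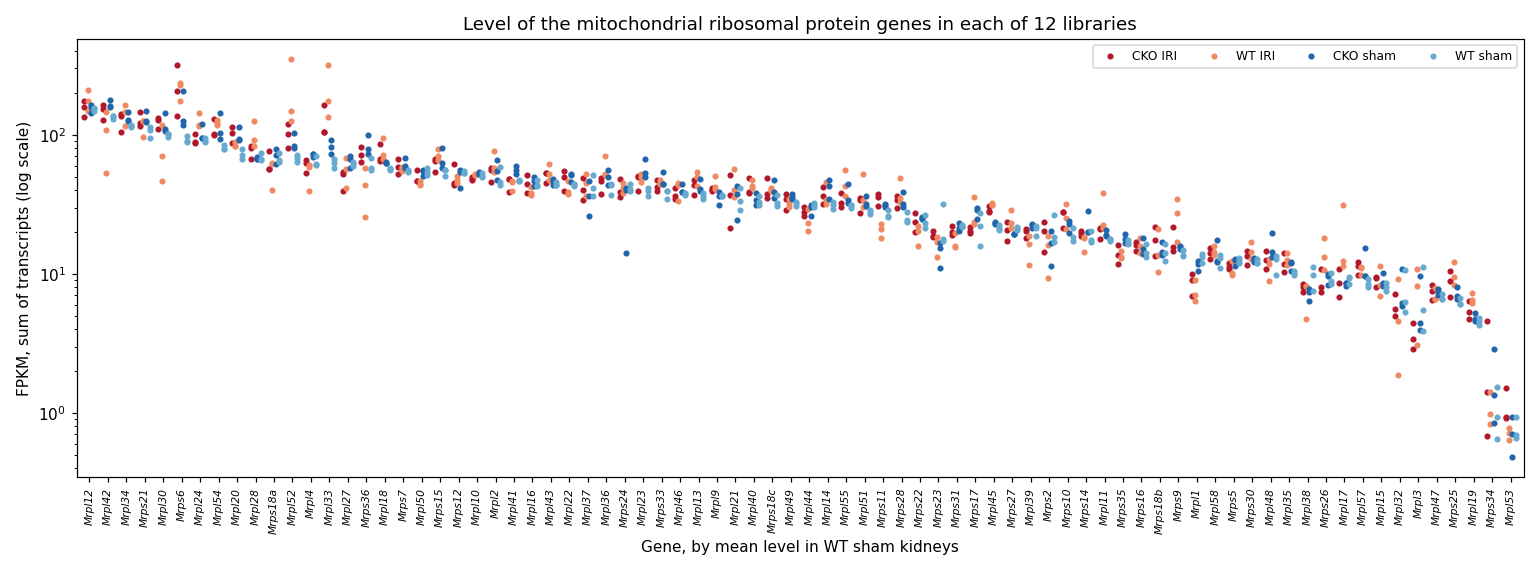
Level of each of the 78 mitochondrial ribosomal protein genes in FPKM (log scale) in each of the 12 libraries, ordered by the mean in WT sham. Most genes keep their place in every group, from Mrpl12 at 154.3 FPKM in WT sham to Mrpl53 at 0.762 FPKM, while single WT IRI libraries stand out for Mrpl33, Mrpl52 and Mrpl17.

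Injury in wild-type kidneys was the comparison in which members were called. In WT IRI against WT sham 19 of 77 members rose and 3 fell, at an adjusted p under 0.05 (limma with Benjamini-Hochberg adjustment over all 12469 genes). Across all genes tested 25.1% rose and 11.9% fell, so the share of members that rose (19 of 77) was close to the background and the share that fell was below it. The WT IRI libraries were all above the WT sham libraries for 29 members (37.7%), against 35.2% of all genes, and all below them for 11 (14.3%), against 19.5%. The median log2 change of the members was 0.178, beside 0.123 over all genes. Cut into 4 equal classes by transcript length, from shortest to longest, 33.8%, 28.3%, 21.4% and 16.7% of all genes rose. Members that rose numbered 14 of 52, 1 of 9, 1 of 11 and 3 of 5 in these classes. In the shortest class (1764 nt or less) the members had a median log2 change of 0.213, beside 0.283 over all genes there. The part of length was not tested. Because 1 FPKM was added before the logarithm, the log2 changes of genes at low levels are understated. With trimmed-mean scaling, which shifts the median over all genes from 0.123 to -0.0117, 5 members rose and 10 fell (6.49% and 13% of those tested), against 17.9% and 17.6% of all genes. With quantile normalization 11 rose and 10 fell (14.3% and 13%), against 17.7% and 17.4%. The split between rises and falls therefore depended on the scaling, and under trimmed-mean scaling the share of members that rose was below that of all genes rather than close to it. The share of false calls to expect among these genes depended in simulations on how the spread between libraries was modelled, from near the nominal rate to far above it. Of the 22 calls, 4 held in each of the 21 other settings tried, namely the rises of Mrpl33, Mrpl52, Mrps6 and Mrpl45.

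Mrpl33 encodes a small large-subunit protein with a bacterial counterpart. It lay at 316.1, 174.6 and 134.4 FPKM in WT IRI, against 63.03, 57.32 and 67.06 FPKM in WT sham. Each injured library was at least about double the sham level, and the highest was number 13. The log2 change was 1.63 ± 0.28 (SE, adjusted p = 0.00181), and it stayed between 1.28 and 1.90 over the other settings. Mrpl33 reached 105.6, 105.5 and 162.9 FPKM in CKO IRI, against 91.68, 81.67 and 72.29 FPKM in CKO sham. These groups did not overlap either, but the change of 0.58 ± 0.28 was not called (adjusted p = 0.233).

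Mrpl52, a large-subunit protein without a bacterial counterpart, lay at 352.3, 147.7 and 126.6 FPKM in WT IRI, against 71.44, 67.86 and 64.19 FPKM in WT sham. It rose by 1.46 ± 0.32 (log2, adjusted p = 0.00572), with the other settings between 1.00 and 1.74. In CKO IRI it was at 80.7, 102 and 120.6 FPKM, against 102.6, 83.14 and 80.56 FPKM in CKO sham. The CKO groups overlapped and the change there was 0.18 ± 0.32 (adjusted p = 0.777).

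Mrps6, the counterpart of bacterial S6 in the small subunit, lay at 236.3, 227.7 and 176.2 FPKM in WT IRI, against 90.73, 97.42 and 89.32 FPKM in WT sham. The rise was 1.19 ± 0.29 (log2, adjusted p = 0.00965). CKO IRI libraries were at 205.9, 317.6 and 137.7 FPKM, against 207.8, 126.6 and 117.3 FPKM in CKO sham, so the CKO groups overlapped. The gene lies at chr16:92058270-92112227 (GRCm38, plus strand) and overlaps Slc5a3, the sodium-coupled myo-inositol transporter, on the same strand. Slc5a3 was at 25.2, 25.6 and 17.6 FPKM in WT IRI, against 13.5, 18.6 and 14.4 FPKM in WT sham, and its groups overlapped. How reads were divided between the 2 genes was not tested.

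Mrpl45, which in mammals lies at the exit of the polypeptide tunnel and anchors the mitoribosome to the inner membrane, had the smallest SE of the called genes. It lay at 32.27, 31.29 and 31.2 FPKM in WT IRI, against 22.51, 21.22 and 20.56 FPKM in WT sham, a change of 0.54 ± 0.09 (adjusted p = 0.00183). In CKO IRI it lay at 28.34, 27.66 and 30.7 FPKM, against 23.13, 23.73 and 22.97 FPKM in CKO sham. The CKO groups did not overlap, with a change of 0.30 ± 0.09 and the smallest p of any member in that comparison (adjusted p = 0.0761).

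The other rises in wild-type kidneys were smaller than those of Mrpl33, Mrpl52 and Mrps6. Mrps9, a bacterial-type small-subunit protein, was at 34.54, 27.22 and 16.89 FPKM in WT IRI, against 14.73, 13.5 and 13.74 FPKM in WT sham, a log2 change of 0.81 ± 0.22 (adjusted p = 0.0174). Mrpl54 was at 120.7, 127.2 and 118.6 FPKM in WT IRI, against 85.17, 79.32 and 78.98 FPKM in WT sham (0.58 ± 0.16, adjusted p = 0.0173). Mrps25, a small-subunit protein of mitochondrial origin, was at 12.18, 8.26 and 9.54 FPKM in WT IRI, against 6.70, 6.08 and 6.05 FPKM in WT sham (0.58 ± 0.17, adjusted p = 0.0224). For these genes all injured libraries were above all sham libraries.
Mrps28 was at 48.66, 32.66 and 34.85 FPKM in WT IRI, against 27.88, 24.47 and 23.76 FPKM in WT sham (0.57 ± 0.16, adjusted p = 0.0188). Mrpl11, the counterpart of bacterial L11 at the base of the factor-binding stalk, was at 37.85, 21.28 and 22.31 FPKM in WT IRI, against 17.8, 17.1 and 17.83 FPKM in WT sham (0.55 ± 0.19, adjusted p = 0.0403). Both groups were again apart, and the library numbered 13 was the highest for 4 of these 5 genes, the exception being Mrpl54. Without WT IRI 13 the number of members that rose was 6 (7.79%), against 19.1% of all genes. Mrpl13, Mrpl18, Mrpl19, Mrpl24, Mrpl28, Mrpl36, Mrpl40, Mrpl55, Mrps15 and Mrps26 also rose, by log2 changes between 0.38 for Mrpl40 and 0.54 for Mrps26.

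**Figure D2:**
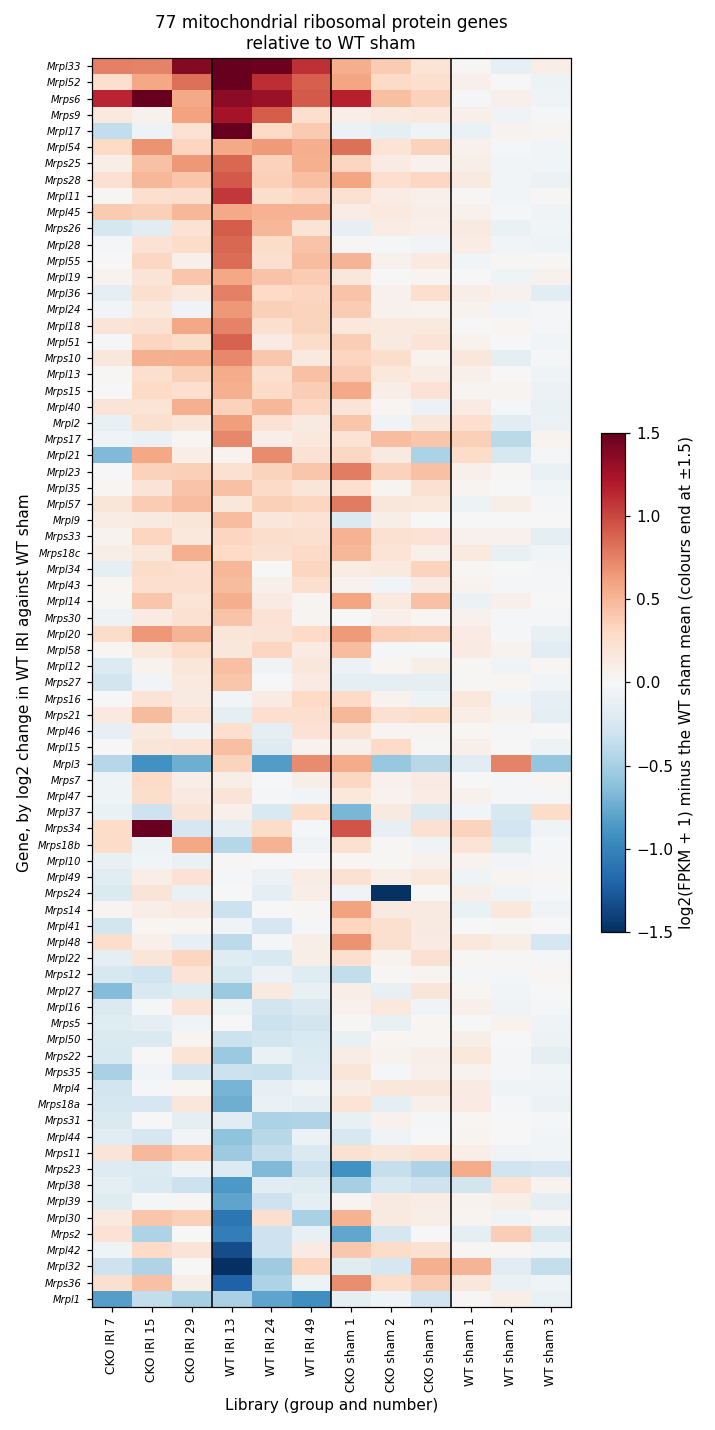
Log2(FPKM + 1) of the 77 tested genes in each library minus the WT sham mean, ordered by the change in WT IRI against WT sham (colours end at ±1.5). The top rows, Mrpl33, Mrpl52 and Mrps6, are raised in all 3 WT IRI libraries, WT IRI 13 lies beyond the other WT IRI libraries for Mrpl33, Mrpl52, Mrpl17 and Mrps36, and Mrpl1 at the bottom is lower in all 6 IRI libraries.

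The falls were those of Mrpl1, Mrps11 and Mrps31. Mrpl1, counterpart of the L1 stalk protein that helps tRNA leave the bacterial ribosome, was at 8.99, 7.10 and 6.42 FPKM in WT IRI, against 13.19, 13.94 and 12.06 FPKM in WT sham. The log2 change was -0.73 ± 0.16 (adjusted p = 0.00512). In CKO IRI it was at 6.91, 9.90 and 8.96 FPKM, against 11.81, 12.41 and 10.4 FPKM in CKO sham, and the groups did not overlap (-0.40 ± 0.16, adjusted p = 0.149). When only the highest transcript was used, the WT change turned to 1.09 (adjusted p = 0.0726), as the transcripts of this gene differed between groups.
Mrps31, a small-subunit protein of mitochondrial origin, was at 19.6, 15.56 and 15.91 FPKM in WT IRI, against 22.44, 22.02 and 21.68 FPKM in WT sham (-0.36 ± 0.12, adjusted p = 0.0319). Mrps11, counterpart of bacterial S11 on the platform of the small subunit, was at 17.99, 20.87 and 22.9 FPKM in WT IRI, against 28.7, 25.74 and 26.02 FPKM in WT sham (-0.37 ± 0.12, adjusted p = 0.0322). Neither of these falls overlapped its sham group.
Mrps36 carries a ribosomal name but is a subunit of the 2-oxoglutarate dehydrogenase complex of the citric acid cycle. It was at 25.52, 43.64 and 57.28 FPKM in WT IRI, against 68.31, 56.17 and 57.61 FPKM in WT sham, and the groups overlapped (-0.58 ± 0.25, adjusted p = 0.0852). It was called lower with trimmed-mean scaling (adjusted p = 0.0424), with array weights, which give less weight to more variable libraries (adjusted p = 0.0442), and without WT IRI 49 (adjusted p = 0.0135).

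**Figure D3:**
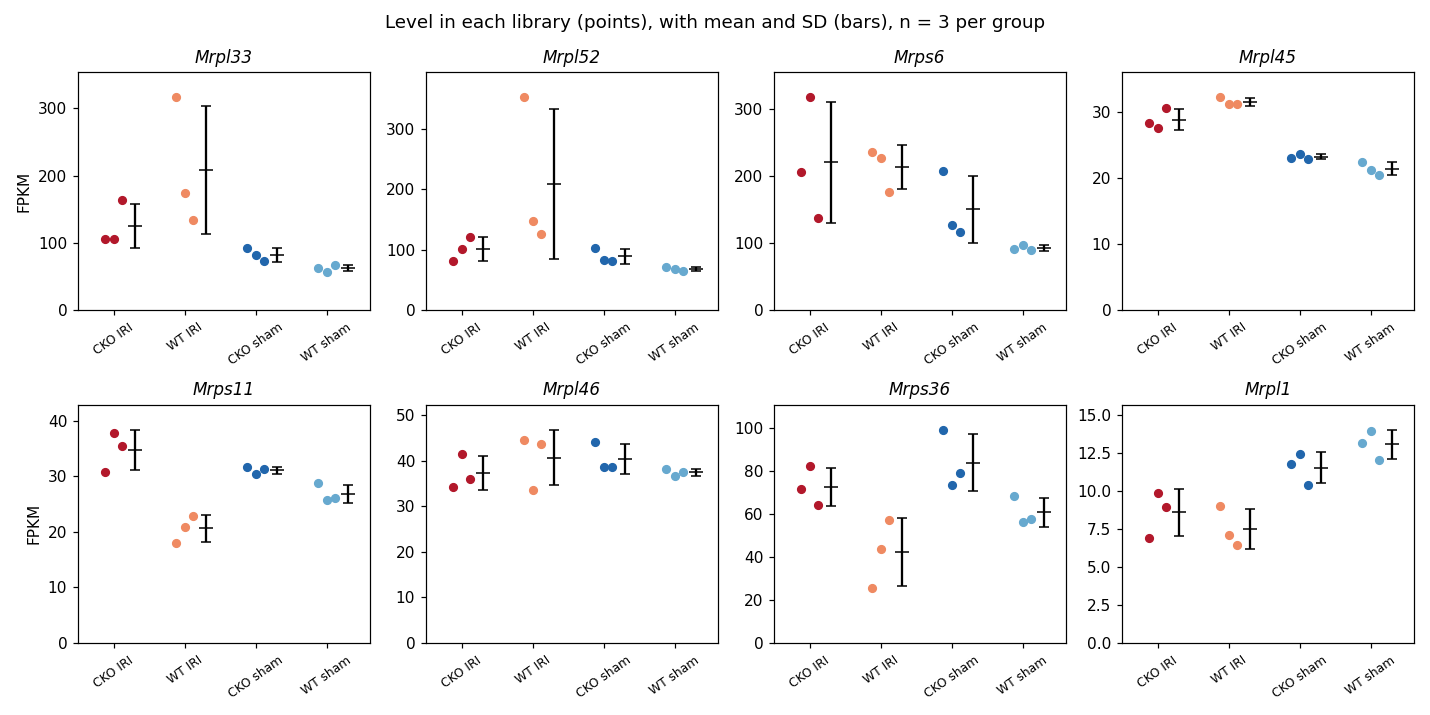
FPKM of 8 genes in each library (points), with the mean and SD of each group (bars, n = 3). WT IRI lies above WT sham for Mrpl33, Mrpl52, Mrps6 and Mrpl45 and below it for Mrps11 and Mrpl1, and Mrpl46, the neighbour of Mrps11, stays between 33.67 and 44.66 FPKM in all 12 libraries.

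By position in the ribosome, large-subunit proteins with a bacterial counterpart had 9 rises and 1 fall among 30 genes in WT IRI against WT sham, with a median log2 change of 0.274. Those added in mitochondria had 4 rises and 0 falls among 20 tested, with a median of 0.0728. In the small subunit, 4 of 16 bacterial-type genes rose and 1 fell (median 0.125), and of the 10 genes of mitochondrial origin 2 rose and 1 fell (median 0.0252). By symbol, 13 of 48 Mrpl genes rose and 1 fell, and 6 of 29 Mrps genes rose and 2 fell. Rises thus made up 20% to 30% of the genes in each of these classes, near the 25.1% of all genes, and falls made up 0% to 10%, against 11.9%. With trimmed-mean scaling the medians were 0.14 and -0.0619 in the large subunit and -0.00939 and -0.109 in the small subunit, so that only the bacterial-type proteins of the large subunit kept the sign of their median under that scaling. Differences between these classes were not tested.

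Injury in the knockout called no member. In CKO IRI against CKO sham 0 of 77 members passed in either direction, where 5.70% of all genes rose and 1.48% fell (limma). At an unadjusted p under 0.05, 1 member was higher and 4 were lower (1.30% and 5.19%), against 16.4% and 7.62% of all genes. With array weights 3 members were higher and 6 lower (3.90% and 7.79%), against 18.2% and 10.2% of all genes. The median log2 change was -0.0276, beside 0.0794 over all genes, and it was 0.0606 without CKO IRI 7. The groups did not overlap for 5 members on the higher side and 8 on the lower side, 6.49% and 10.4% of those tested, against 21.4% and 10.1% of all genes.
Besides Mrpl45 and Mrpl33, the smallest p on the higher side belonged to Mrpl40 (0.27 ± 0.13, adjusted p = 0.237) and Mrps6 (0.51 ± 0.29, adjusted p = 0.308). Mrpl40 was at 38.44, 38.67 and 48.86 FPKM in CKO IRI, against 38.44, 34.12 and 31.39 FPKM in CKO sham, with the groups touching at 38.44 FPKM. On the lower side Mrps35 was at 11.71, 16.21 and 13.68 FPKM in CKO IRI, against 19.19, 16.61 and 17.7 FPKM in CKO sham (-0.35 ± 0.13, adjusted p = 0.118). This small-subunit gene passed without CKO IRI 15 (adjusted p = 0.0382) and with array weights (adjusted p = 0.00575).
Mrpl41, of the large subunit, was at 38.75, 47.97 and 48.03 FPKM in CKO IRI, against 59.28, 55.86 and 51.85 FPKM in CKO sham (-0.31 ± 0.12, adjusted p = 0.137). Mrpl27, a bacterial-type protein near the peptidyl transferase centre, was at 39.19, 52.49 and 54.34 FPKM in CKO IRI, against 66.57, 57.4 and 70.58 FPKM in CKO sham (-0.42 ± 0.18, adjusted p = 0.193). In both genes all injured libraries were below all sham libraries.

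The 2 injury comparisons share no libraries and could be set side by side. Of the 19 members that rose in WT kidneys, 11 had a positive change in CKO IRI against CKO sham (57.9%), with a median of 0.137 there and 0.539 in WT. Among all 3125 genes that rose in WT, 90.1% had a positive change in CKO. Both sets were picked by their WT calls, which raises their WT changes. The smaller CKO median is thus no measure of a difference between genotypes. Over the 77 members, 46 had the same sign in both genotypes (59.7%), against 70.2% of all genes. Spearman's rho between the CKO and the WT changes was 0.364 across the members and 0.576 across all genes, and genes are not independent replicates. The difference between the injury responses was tested as an interaction. No member passed in either direction, where 0.00802% of all genes did in each direction. At an unadjusted p under 0.05, 2 members had a more positive change in CKO than in WT and 13 a more negative one. These were 2.60% and 16.9% of members, against 7.26% and 10.7% of all genes. With array weights 6 members (7.79%) were called with a more negative change and 0 with a more positive one, against 3.96% and 2.78% of all genes. The median interaction was -0.173, beside -0.0642 over all genes, and -0.0906 without CKO IRI 7.
The smallest p on the lower side were those of Mrpl24 (-0.60 ± 0.18, adjusted p = 0.189) and Mrpl23 (-0.61 ± 0.20, adjusted p = 0.198), which encode proteins of the large subunit near the tunnel exit. The interaction for Mrpl33 was -1.05 ± 0.39 (adjusted p = 0.223) and for Mrpl52 -1.28 ± 0.45 (adjusted p = 0.215). On the higher side stood Mrps11 (0.52 ± 0.17, adjusted p = 0.196) and Mrps23 (0.81 ± 0.33, adjusted p = 0.247).

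**Figure D4:**
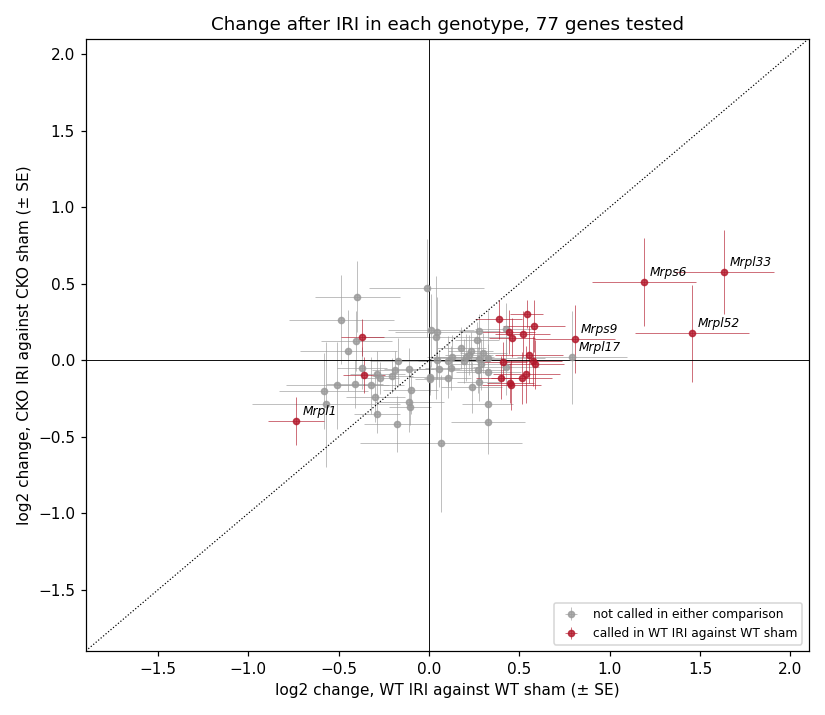
Log2 change after IRI in CKO (vertical) against that in WT (horizontal) for the 77 tested genes, with SE bars; red marks the 22 genes called in WT IRI against WT sham and the dotted line marks equal changes. Mrpl33, Mrpl52 and Mrps6 lie far to the right with CKO changes of 0.58, 0.18 and 0.51, and 11 of the 19 genes that rose in WT lie above the horizontal axis.

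After injury the genotypes were compared directly. Between the libraries labelled CKO IRI and WT IRI 0 members passed, where 0.0241% of all genes were higher and 0.0160% lower (limma). At an unadjusted p under 0.05, 5 members were higher and 9 lower (6.49% and 11.7%), against 7.72% and 13.2% of all genes. Without WT IRI 49, 3 were called higher and 4 lower (3.90% and 5.19%), against 5.25% and 6.01% of all genes. With array weights 1 was higher and 3 lower (1.30% and 3.90%), against 2.57% and 3.22%. These shares were near those of all genes. The genotypes did not overlap for 4 members on the higher side (5.19%), against 7.11% of all genes, and for 7 on the lower side (9.09%), against 11.5%. The median log2 difference was -0.0279, beside -0.0453 over all genes.
Mrps11 had the smallest p. It was at 30.68, 37.79 and 35.47 FPKM in CKO IRI, against 17.99, 20.87 and 22.9 FPKM in WT IRI, with no overlap and a log2 difference of 0.73 ± 0.12 (adjusted p = 0.0772). The adjusted p was 0.00973 without WT IRI 49 and 0.0322 with array weights, and it lay between 0.0617 and 0.476 in the other settings. CKO sham libraries lay at 31.57, 30.3 and 31.28 FPKM for this gene, so that WT IRI was the group that stood apart. By its GENCODE gene bounds Mrpl46 starts 412 bp away on the other strand. It was at 34.28, 41.54 and 36.1 FPKM in CKO IRI, against 44.66, 33.67 and 43.68 FPKM in WT IRI, and these groups overlapped. The 5′ ends of the 2 genes overlap by these bounds. By the RefSeq starts behind the printed windows they point away from each other without overlap, so the annotations differ. The sources do not say whether strand was used in the counting.

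Mrps36 was at 71.35, 82.03 and 64.19 FPKM in CKO IRI, against 25.52, 43.64 and 57.28 FPKM in WT IRI, without overlap (0.83 ± 0.25, adjusted p = 0.135). Mrpl30 was at 110.4, 133 and 128.4 FPKM in CKO IRI, against 46.3, 117.5 and 70.82 FPKM in WT IRI (0.75 ± 0.27, adjusted p = 0.165). Mrpl42 was at 128, 164.4 and 153.9 FPKM in CKO IRI, against 52.87, 107.8 and 146.3 FPKM in WT IRI (0.65 ± 0.28, adjusted p = 0.229). Mrpl30 and Mrpl42, both of the large subunit, overlapped between genotypes, and WT IRI 13 was lowest for all 3 genes.
On the lower side Mrpl24 was at 88.12, 101.8 and 87.95 FPKM in CKO IRI, against 143.6, 117.2 and 115.3 FPKM in WT IRI (-0.43 ± 0.13, adjusted p = 0.141). Mrps26 was at 7.43, 8.06 and 10.76 FPKM in CKO IRI, against 17.99, 13.32 and 10.68 FPKM in WT IRI (-0.61 ± 0.19, adjusted p = 0.143). Mrpl17, a bacterial-type large-subunit protein, was at 6.84, 8.60 and 10.75 FPKM in CKO IRI, against 31.34, 11.47 and 12.29 FPKM in WT IRI (-0.87 ± 0.30, adjusted p = 0.163). Mrpl24 and Mrpl17 did not overlap, Mrps26 did by a narrow margin, and WT IRI 13 was the highest of the 6 libraries for each. Mrpl52 differed by -0.90 ± 0.32 (adjusted p = 0.161), with its values given above.

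In uninjured kidneys most members had small positive differences in the knockout that did not pass the test. No member was called in CKO sham against WT sham, and 0% of all genes were called in either direction (limma). At an unadjusted p under 0.05, 8 members were higher and 1 was lower, 10.4% and 1.30%, against 3.51% and 3.03% of all genes. The median log2 difference was 0.137, beside 0.0140 over all genes, and 60 of 77 differences were positive, against 6540 of 12469 over all genes. Genes of the cytosolic ribosome, nuclear oxidative phosphorylation and the mitochondrial genome, given below, had larger medians (0.310, 0.291 and 0.303). All 3 CKO sham libraries were above all 3 WT sham libraries for 31 members (40.3%), against 15% of all genes, and below them for 2 (2.60%), against 13.4%. When libraries were rescaled to equal sums these counts were 17 and 7 for the members (22.1% and 9.09%), against 1248 and 2522 of the 12469 genes. CKO sham 1 had the highest sum of members among the 6 sham libraries (3759 FPKM), and without it the median difference was 0.0948.
Transcript length moved with this comparison as well. When all genes were cut into 4 equal classes by length, the shortest (1764 nt or less) had a median difference of 0.161, and 52 members in that class had a median of 0.172. In the longer classes the medians over all genes were 0.00866, -0.0511 and -0.0527, and the members there numbered 9, 11 and 5, with medians of 0.0960, 0.107 and 0.0235. The part of length in the result was not tested.

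Mrpl23 was at 67.4, 49.97 and 53.16 FPKM in CKO sham, against 41.26, 39.6 and 36.47 FPKM in WT sham (0.52 ± 0.14, adjusted p = 0.748). Mrpl20, of the large subunit, was at 114, 93.07 and 92.29 FPKM in CKO sham, against 79.46, 71.79 and 67.1 FPKM in WT sham (0.45 ± 0.13, adjusted p = 0.748). Mrpl54 was at 144.6, 93.86 and 103.3 FPKM in CKO sham, against 85.17, 79.32 and 78.98 FPKM in WT sham (0.46 ± 0.16, adjusted p = 0.748). These groups were apart, with CKO sham 1 the highest library each time. Mrps33, of the small subunit, was at 54.46, 44.14 and 44.02 FPKM in CKO sham, against 39.28, 39.53 and 34.32 FPKM in WT sham (0.32 ± 0.12, adjusted p = 0.748).
On the lower side Mrps23 was at 10.95, 16.64 and 15.22 FPKM in CKO sham, against 31.81, 17.14 and 17.84 FPKM in WT sham (-0.57 ± 0.23, adjusted p = 0.748), where WT sham 1 stood above the rest. Mrpl38, Mrps24 and Mrps2 were the next lower in p, and in each of them the groups overlapped. Mrpl38 was at 6.37, 7.81 and 7.41 FPKM in CKO sham, against 7.59, 11.15 and 9.82 FPKM in WT sham. Mrps24 was at 39.85, 14.22 and 41.48 FPKM in CKO sham, against 44.14, 39.56 and 40.96 FPKM in WT sham, and CKO sham 2 alone was low. It overlaps Urgcp on the same strand, which was at 8.14, 8.48 and 13.7 FPKM in CKO sham, against 15.8, 16.1 and 13.5 FPKM in WT sham. Mrps2 was at 11.34, 16.74 and 20.28 FPKM in CKO sham, against 18.37, 26.48 and 16.9 FPKM in WT sham.

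Some members differed between libraries in the transcript that carried their signal. Of the 78 genes, 45 had 1 deposited transcript and 33 had more, and in 6 genes the share of some transcript ranged over 50 percentage points or more between libraries. Among these was Mrpl1 at chr5:96209493-96266727 (GRCm38, plus strand). Its transcript Mrpl1-202 was listed at 0 in all 3 CKO sham libraries, against 6.84, 6.93 and 6.47 FPKM in WT sham. It was the only 1 of 148 member transcripts, and 1 of 16 among 25740, listed at 0 throughout CKO sham and at 1 FPKM or more throughout WT sham. After IRI it was at 0.654, 0 and 0 FPKM in CKO IRI, against 0, 0 and 3.00 FPKM in WT IRI. Mrpl1-201 held 94.3%, 73.9% and 93.6% of the gene in CKO sham, against 6.5%, 9.9% and 22.1% in WT sham, while the gene's summed level differed by only -0.17 ± 0.16 (log2, adjusted p = 0.843). The transcripts are long and similar in length (3431 and 3556 nt), and an exact 0 in such a table can be a failed estimate.
Mrpl30-207 was at 3.74, 75.5 and 6.23 FPKM in WT IRI, against 60.1, 59.0 and 65.7 FPKM in WT sham, so that WT IRI 13 and WT IRI 49 alone were low. Mrpl17-201 was at 13.98, 1.06 and 0.819 FPKM in WT IRI, against 0.0218, 0.421 and 0.131 FPKM in WT sham, and the high WT IRI 13 value of Mrpl17 came in part from it. Shares also differed widely within groups. Mrpl2-201 held 0.8%, 10.6% and 50.2% of its gene in WT IRI, and 16.4%, 60.1% and 58.4% in WT sham. Transcript shares were not tested, and genes with such wide ranges were not counted over all genes.

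**Figure D5:**
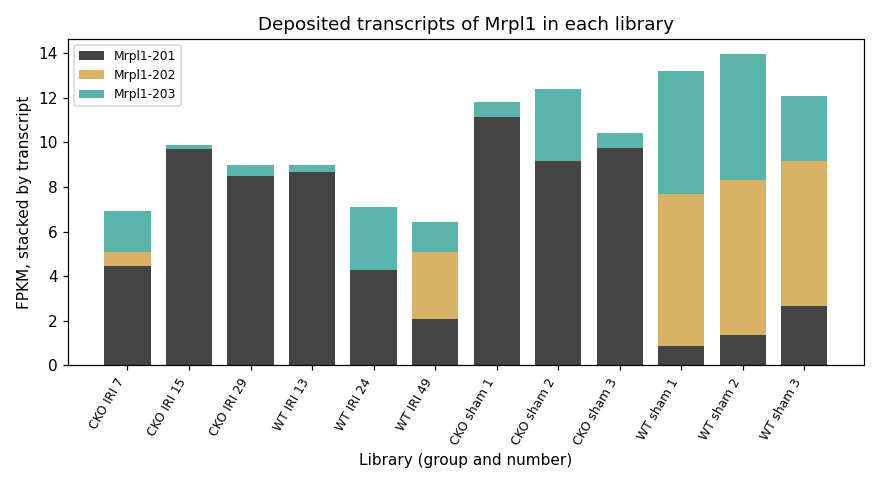
FPKM of the 3 deposited transcripts of Mrpl1, stacked, in each library. Mrpl1-202 makes up 51.9%, 49.7% and 53.7% of the gene in the 3 WT sham libraries and is listed at 0 in the 3 CKO sham libraries, where Mrpl1-201 takes most of the signal.

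Genes that work beside the mitoribosome were called in both directions in WT IRI against WT sham, where 25.1% of all genes rose and 11.9% fell. Of 5 mitoribosomal proteins under other symbols 1 rose, Gadd45gip1 (0.61 ± 0.21, adjusted p = 0.0438), and Aurkaip1 and Chchd1 were at 0.42 ± 0.18 (adjusted p = 0.0917) and 0.28 ± 0.14 (adjusted p = 0.142). Of 29 assembly factors 5 rose and 2 fell. Rpusd3, a pseudouridine synthase of mitochondrial RNA, fell (-0.76 ± 0.15, adjusted p = 0.00392) and Mpv17l2, an assembly factor of the inner membrane, rose (0.53 ± 0.13, adjusted p = 0.00951). Grsf1, an RNA-binding protein of mitochondrial RNA granules, fell (-0.58 ± 0.16, adjusted p = 0.0180). Of 13 translation factors 0 rose and 2 fell, Taco1, the translational activator of cytochrome oxidase subunit 1 (-0.89 ± 0.17, adjusted p = 0.00323), and Gfm1, an elongation factor (-0.85 ± 0.17, adjusted p = 0.00383). Of 20 genes for aminoacyl-tRNA synthesis in mitochondria 0 rose and 3 fell, Nars2 (-0.67 ± 0.15, adjusted p = 0.00608), Lars2 (-0.95 ± 0.24, adjusted p = 0.0112) and Iars2 (-0.43 ± 0.13, adjusted p = 0.0274).
Of 20 genes of mitochondrial transcription and mRNA stability 2 rose and 3 fell, among them the transcription factor Nrf1 (0.80 ± 0.20, adjusted p = 0.0120), Mterf2 (-0.78 ± 0.19, adjusted p = 0.0104) and Tfb2m, a mitochondrial transcription factor (-0.39 ± 0.12, adjusted p = 0.0217). In CKO IRI against CKO sham 0 genes of these 5 lists were called with limma, where 5.70% of all genes rose and 1.48% fell.

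Most protein genes of the cytosolic ribosome rose after injury in wild-type kidneys. Of 78 genes 71 rose (91%) and 0 fell in WT IRI against WT sham, where 25.1% of all genes rose and 11.9% fell. The median log2 change was 0.825. In CKO IRI against CKO sham 3 rose (3.85%), against 5.70% of all genes, with a median of 0.218. Rpl10a (1.02 ± 0.12, adjusted p = 0.000245), Rps27a (0.98 ± 0.12, adjusted p = 0.000272) and Rps16 (1.14 ± 0.14, adjusted p = 0.000275) had the smallest p in WT. In CKO sham against WT sham 65 of the 78 (83.3%) were above WT sham in every library, against 40.3% of the mitochondrial members and 15% of all genes. With libraries rescaled to equal sums this was 76.9%, against 22.1% of the members and 10% of all genes. Nuclear genes of oxidative phosphorylation had 1 rise and 6 falls among 76 in WT IRI against WT sham, with a median of -0.0966. These were 1.32% and 7.89% of the list, against 25.1% and 11.9% of all genes. Ndufs1 (-1.56 ± 0.25, adjusted p = 0.00140), Sdha (-1.06 ± 0.21, adjusted p = 0.00392) and Uqcrc2 (-0.77 ± 0.17, adjusted p = 0.00559) fell. The median of the 76 genes was -0.185 in CKO IRI against CKO sham, where 0 were called, against 5.70% and 1.48% of all genes. In CKO sham against WT sham 54 of the 76 (71.1%) were above WT sham in every library, against 15% of all genes. With libraries rescaled to equal sums this was 64.5%, against 10%. The median transcript lengths of the cytosolic ribosome and oxidative phosphorylation lists were 827 and 834 nt, within the shortest class given above.
The 13 protein-coding genes of the mitochondrial genome measured here all had negative changes in both injury comparisons, with a median of -0.313 in CKO IRI against CKO sham and of -0.566 in WT IRI against WT sham. Of these only mt-Nd6 was called, in WT (-0.63 ± 0.22, adjusted p = 0.0425), beside mt-Atp6 (-1.94 ± 0.73, adjusted p = 0.0589) and mt-Nd5 (-0.85 ± 0.36, adjusted p = 0.0879). This 1 fall made up 7.69% of the list, where 11.9% of all genes fell. The summed level of the 13 genes was lowest in WT IRI 13, at 15590 FPKM, against 37730 to 39980 FPKM in WT sham. In CKO sham against WT sham 12 of the 13 (92.3%) were above WT sham in every library, against 15% of all genes. With libraries rescaled to equal sums this was 84.6%, against 10%.

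Markers of other cell states moved with injury beside the members. Among all genes 5.70% rose and 1.48% fell in CKO IRI against CKO sham, and 25.1% and 11.9% in WT IRI against WT sham. Of 10 proximal tubule markers 1 fell in CKO IRI against CKO sham and 9 fell in WT IRI against WT sham, with medians of -0.653 and -1.42. Of 8 injured-tubule markers 5 rose in CKO IRI and 8 in WT IRI. All 6 cell-cycle markers rose in both, and summed to 71.8 to 133.4 FPKM in CKO IRI and 152.2 to 212.3 FPKM in WT IRI, against 4.20 to 5.13 FPKM in CKO sham and 3.08 to 3.93 FPKM in WT sham. Macrophage markers rose in 1 of 6 genes in CKO IRI and in 4 of 6 in WT IRI, and fibroblast markers in 3 of 5 in both. In WT IRI 2 of the 6 macrophage markers had negative changes. Endothelial markers fell in 2 of 5 genes in CKO IRI and 3 of 5 in WT IRI, and podocyte markers in 1 of 4 and 2 of 4. Markers of the thick ascending limb and distal tubule fell in 0 of 4 and 2 of 4. Of 4 collecting duct markers 1 rose and 1 fell in WT IRI. The part of any of these in the changes of the mitochondrial ribosomal protein genes was not tested.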

How the data were processed

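Bulk RNA-seq of kidney from 12 mouse libraries was analysed, 3 in each of 4 groups set by the genotype and treatment labels. The authors deposited 1 table of 25790 transcripts, whose values were read as FPKM. No unit stands in the header; TPM would differ by 1 factor per library. The submitters' processing notes list cutadapt, StringTie and HISAT2 2.1.0. They also name GRCh38, whereas the identifiers are mouse. Per the labels' protocols, libraries were strand-marked by dUTP.

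Identifiers were matched to GENCODE M21 (GRCm38), giving 25740 matches; the 50 unmatched held at most 0.103% of any library. FPKM were summed per gene (13465 genes). The depth is unknown: at best 30.5% to 45.8% of low values lay within 0.1 of a whole multiple of 1 read, so reads were not recovered and no count test was run. The 12469 genes that reached 1 FPKM in 3 or more libraries were fitted with limma 3.58.1 in R 4.3.3 on log2(FPKM + 1), using group means, an intensity trend in the prior variance and a residual variance pooled over the groups. Tests were two-sided, and calls were made at an adjusted p under 0.05 (Benjamini-Hochberg within a comparison). The fit was tested on simulated data under 3 models of the spread. With a spread common to the groups, and with each group's own average spread, false calls were slightly above nominal in WT IRI against WT sham. With each group's own spread, the shared spread was too wide, and so cautious, for CKO sham against WT sham, and too narrow, and so liberal, for CKO IRI against WT IRI. When the SDs of 3 libraries were shuffled over genes within each group, false calls were far above nominal in WT IRI against WT sham and in CKO IRI against WT IRI, and genes were falsely called in the other 2 comparisons too. That model exaggerates how spreads vary, but it leaves a doubt about the calls in WT IRI against WT sham.

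The members and lists were chosen with earlier results of these data known. Named members were the 8 largest called rises and falls of each injury comparison, the 4 smallest p in each direction of each comparison with fewer than 4 called members over both directions (2 for the interaction), the 5 highest and 5 lowest levels in WT sham, the Mrps18 paralogs and Mrps36. The overlapping and neighbouring genes, Mrpl45 in WT kidneys, the interactions of Mrpl33 and Mrpl52, and the transcripts were added after their values were seen. Alternatives were another pseudocount (0.1), other filters on low values, other scalings, array weights, a fit of only the groups compared, the highest transcript only, a replicate block and leaving out each library.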

Additional observations from a re-analysis of the deposited data

How the results depend on the processing

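In WT IRI against WT sham the members that rose numbered 11 with quantile normalization, 5 with trimmed-mean scaling and 12 with only the groups compared, beside 19. Leaving out a library gave 4 (without WT sham 2) to 19, with 5 without WT sham 3, 6 without WT IRI 13 and 10 without WT sham 1. The shares of all genes that rose were 17.7%, 17.9% and 21.6% with these 3 settings, and 17.6%, 17.5%, 19.1% and 18.1% without these libraries in turn, beside 25.1%. Those that fell, 3 in all, numbered 10 with quantile normalization, 10 with trimmed-mean scaling, 1 with only the groups compared and 7 with array weights. Leaving out a library gave 1 (without any of the 3 WT sham libraries) to 7 (without WT IRI 49). With these settings in turn 13%, 13%, 1.30% and 9.09% of members fell, against 17.4%, 17.6%, 9.99% and 15.7% of all genes. Without WT IRI 49 the shares were 9.09% and 15.5%. Without WT sham 1, 2 or 3, 1.30% of members fell each time, against 7.79%, 7.27% and 7.34% of all genes. The median change of 0.178 became 0.0776 with quantile normalization and 0.0432 with trimmed-mean scaling, and 0.127 to 0.238 without a library. Mrpl1 reversed to 1.09 when only its highest transcript was used; the share of that transcript differs between groups.

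In CKO IRI against CKO sham array weights called 3 members higher and 6 lower, against 0 and 0. Leaving out a library called 0 higher and 0 to 1 lower. The 1 came without CKO IRI 15 (1.30% of members, against 3.01% of all genes). The median of -0.0276 was -0.113 with trimmed-mean scaling and -0.0855 to 0.0606 without a library. In CKO IRI against WT IRI array weights called 1 higher and 3 lower, and leaving out a library called 0 to 3 higher and 0 to 4 lower, the highest without WT IRI 49, with medians of -0.0878 to 0.0225. A fit of only these groups called 0 of all 12469 genes in either direction. For the interaction array weights called 6 lower, and leaving out a library called 0 to 1 lower, with medians of -0.208 to -0.0906 (the highest without CKO IRI 7). In CKO sham against WT sham 0 members were called in any setting, and the median of 0.137 was 0.0948 to 0.170 without a library. Causes of these shifts were not tested.

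The replicate numbers are shared by the sham groups, but same-numbered libraries did not deviate together across genes (r of 0.00355, -0.0314 and -0.00247). With the replicate block 0 members were called higher and 0 lower in CKO sham against WT sham, with a median of 0.137. For the named members, 783 values kept direction and call, 21 gained and 39 lost the call, and 1 reversed. Depth, which is unknown, limits what can be said of Mrpl53 and Mrps34.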
